A study of Mus musculus with 201 samples.

Results

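Enzymes that make or read cyclic AMP, and phosphodiesterases of cyclic nucleotides, were examined in single dentate granule cells of the mouse. The set held every gene whose symbol names an adenylyl cyclase (Adcy1 to Adcy10), a cyclic nucleotide phosphodiesterase of the numbered and lettered families (Pde1a to Pde11a), a catalytic subunit of protein kinase A (Prkaca and Prkacb) or one of its regulatory subunits (Prkar1a, Prkar1b, Prkar2a and Prkar2b). These were 38 genes, of which 10 were cyclases, 22 phosphodiesterases, 2 catalytic and 4 regulatory subunits, out of 42802 genes in the table of nuclei from the explored environment. All 38 were also listed in the tables of home-cage nuclei and of whole cells. The symbols alone decided membership, so phosphodiesterases of cyclic GMP were not set apart from those of cyclic AMP. For the same reason Pde6d, which names a subunit without catalytic activity, was counted among the phosphodiesterases and in their sums and shares. The set was proposed with earlier results of these data known.

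Adenylyl cyclases convert ATP into cyclic AMP, and phosphodiesterases hydrolyse cyclic nucleotides, so that the balance between them sets how much of the messenger a cell holds and for how long. Cyclic AMP binds the regulatory subunits of protein kinase A (PKA) and frees its catalytic subunits, which phosphorylate channels, synaptic proteins and the transcription factor CREB. In hippocampal neurons this pathway is known for its part in lasting synaptic plasticity and in the transcription that follows neuronal activity.

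The study set 2 contrasts. Nuclei of a C57BL/6 mouse that spent 15 min in an environment unknown to it (NE) and 1 h back in its cage were isolated by Dounce homogenisation, stained and sorted as PROX1+FOS+ or PROX1+FOS-, PROX1 being the transcription factor that marks dentate granule cells and FOS the protein of an immediate early gene. Whole cells came from Prox1-GFP mice, in which a fluorescent protein marks cells with an active Prox1 gene; the mice were injected with saline or with pentylenetetrazole (PTZ, 50 mg per kg), a convulsant, and were killed 1 h later, and their cells were freed with the protease papain and sorted as GFP+. NEUN+PROX1+ nuclei of a C57BL/6 mouse left in the home cage (HC) formed the last group. The C57BL/6 mice were females, 8 weeks old by the study's methods, and the age of the Prox1-GFP mice is not given in the sources used here. Each nuclear preparation stands for 1 mouse and each whole-cell treatment for 1 plate of cells, from 2 pooled mice by the study's methods, so that nuclei and cells are not replicates of a condition. No test between groups was therefore made, every spread below is over the nuclei or cells of 1 sample, and plate and treatment cannot be told apart in the whole cells.

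After quality control 40 FOS+ and 41 FOS- NE nuclei, 23 HC nuclei, 30 PTZ-treated and 38 saline-treated cells were kept. Total counts ran from 63775 to 1060520 in the NE nuclei, from 107647 to 278779 in the HC nuclei and from 67212 to 5129240 in the whole cells. The granule cell marker Prox1 had a TPM (transcript level per gene length, scaled to the same total in each nucleus or cell) above 1 in 33 of 40 FOS+ nuclei, 34 of 41 FOS- nuclei, 14 of 23 HC nuclei and every whole cell kept. Of the other granule cell markers listed, Calb1 was detected in every NE nucleus. C1ql2 was detected in 18 FOS+ and 25 FOS- nuclei, Stxbp6 in 20 and 29, and Dsp in 11 and 9. In PTZ-treated and saline-treated cells the numbers were 23 and 33 for Calb1, 24 and 37 for C1ql2, 22 and 36 for Stxbp6, and 9 and 10 for Dsp. The activity-regulated gene Arc was detected in 31 FOS+ nuclei and 1 FOS- nucleus, whereas in whole cells it was detected in 14 of 30 PTZ-treated and 17 of 38 saline-treated cells. Fos itself was detected in 12 FOS+ and 3 FOS- nuclei, and in 26 PTZ-treated and 30 saline-treated cells, so that neither gene set the treated cells apart from the saline-treated ones. Summed TPM of the 20 glial and endothelial markers exceeded that of the 3 neuron markers in 4 FOS+, 2 FOS- and 2 HC nuclei and in 2 PTZ-treated cells. That glial and endothelial sum ran from 5.15 to 3505 in FOS+ and from 2.35 to 2448 in FOS- nuclei, from 0 to 11990 in PTZ-treated and from 0 to 336 in saline-treated cells. Of the 5 microglial markers, C1qa and Tmem119 were at 0 in every nucleus and cell, whereas Cx3cr1 was detected in 29 FOS+, 33 FOS- and 10 HC nuclei and in no whole cell. P2ry12 was detected in 4 FOS+ and 5 FOS- nuclei and Csf1r in 4 and 1, and the microglial sum reached 3436 in a FOS+ nucleus and 51.8 in a FOS- nucleus. Both differences past the size rule described below stayed past it without these nuclei and cells.

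Throughout, a gene was called detected at a TPM above 1, and a level is the mean of log2(TPM + 1) over the nuclei or cells of a group. Differences in level understate the change of low genes because of the added 1. A gene was counted as higher or lower when its level differed by at least 2, and in the NE nuclei only when the difference also had the same sign in all 4 amplification conditions, which combined a template-switching oligonucleotide (TSO) at 1 or 10 uM with spike-in RNA (ERCC) diluted 1:200 or 1:2000. Intervals on shares are exact (Clopper-Pearson) 95% binomial intervals and intervals on summed counts are exact Poisson intervals. Both cover counting error only.

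Pde4a, which encodes a phosphodiesterase specific for cyclic AMP, separated the FOS+ from the FOS- nuclei more than any other gene of the set. In FOS+ nuclei its TPM ran from 0 to 760, with a median of 219.8. In FOS- nuclei it ran from 0 to 462, with a median of 15.9. The groups overlapped over most of this range, but 30 of the 40 FOS+ nuclei lay above a TPM of 100 against 13 of the 41 FOS- nuclei. The level was 7.07 ± 2.54 (SD, n = 40 nuclei) against 4.25 ± 2.89 (SD, n = 41 nuclei), a difference of 2.82. Summed over nuclei, Pde4a took 9641 counts, or 667 CPM (counts of a group scaled to a common total; interval 654 to 680), in FOS+ nuclei and 1639 counts, or 117.4 CPM (112 to 123), in FOS- nuclei, a ratio of 5.68. No single nucleus carried this sum, since the richest held 7.52% of the counts in the FOS+ group and 15.6% in the FOS- group.

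The Pde4a difference lay in the amount of transcript more than in whether it was seen. Of the FOS+ nuclei 37 showed it (92.5%, 79.6% to 98.4%), and of the FOS- nuclei 34 (82.9%, 67.9% to 92.8%), shares whose intervals overlap. With every nucleus thinned to 50000 counts, the expected share with at least 1 Pde4a read was 90.8% in FOS+ and 65.8% in FOS- nuclei. The difference in level was positive in each amplification condition, at 3.26 and 4.92 with 1 uM TSO (ERCC 1:200 and 1:2000) and at 0.96 and 2.31 with 10 uM TSO. Leaving out any 1 nucleus moved it between 2.71 and 3, and it was 3.14 without the nuclei rich in glial and endothelial markers.

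In the other groups Pde4a was spread as widely. In the HC nuclei it was detected in 11 of 23 (47.8%, 26.8% to 69.4%), the median TPM was 0 and the highest was 1472. In whole cells it was detected in 21 of 30 PTZ-treated and 31 of 38 saline-treated cells, with median TPMs of 45.2 and 23.4 and highest values of 425 and 620. These cells did not separate by treatment, with levels of 4.32 ± 3.17 (SD, n = 30 cells) and 4.08 ± 2.72 (SD, n = 38 cells), a difference of 0.25, and with 109.4 and 112.7 CPM.

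**Figure D1:**
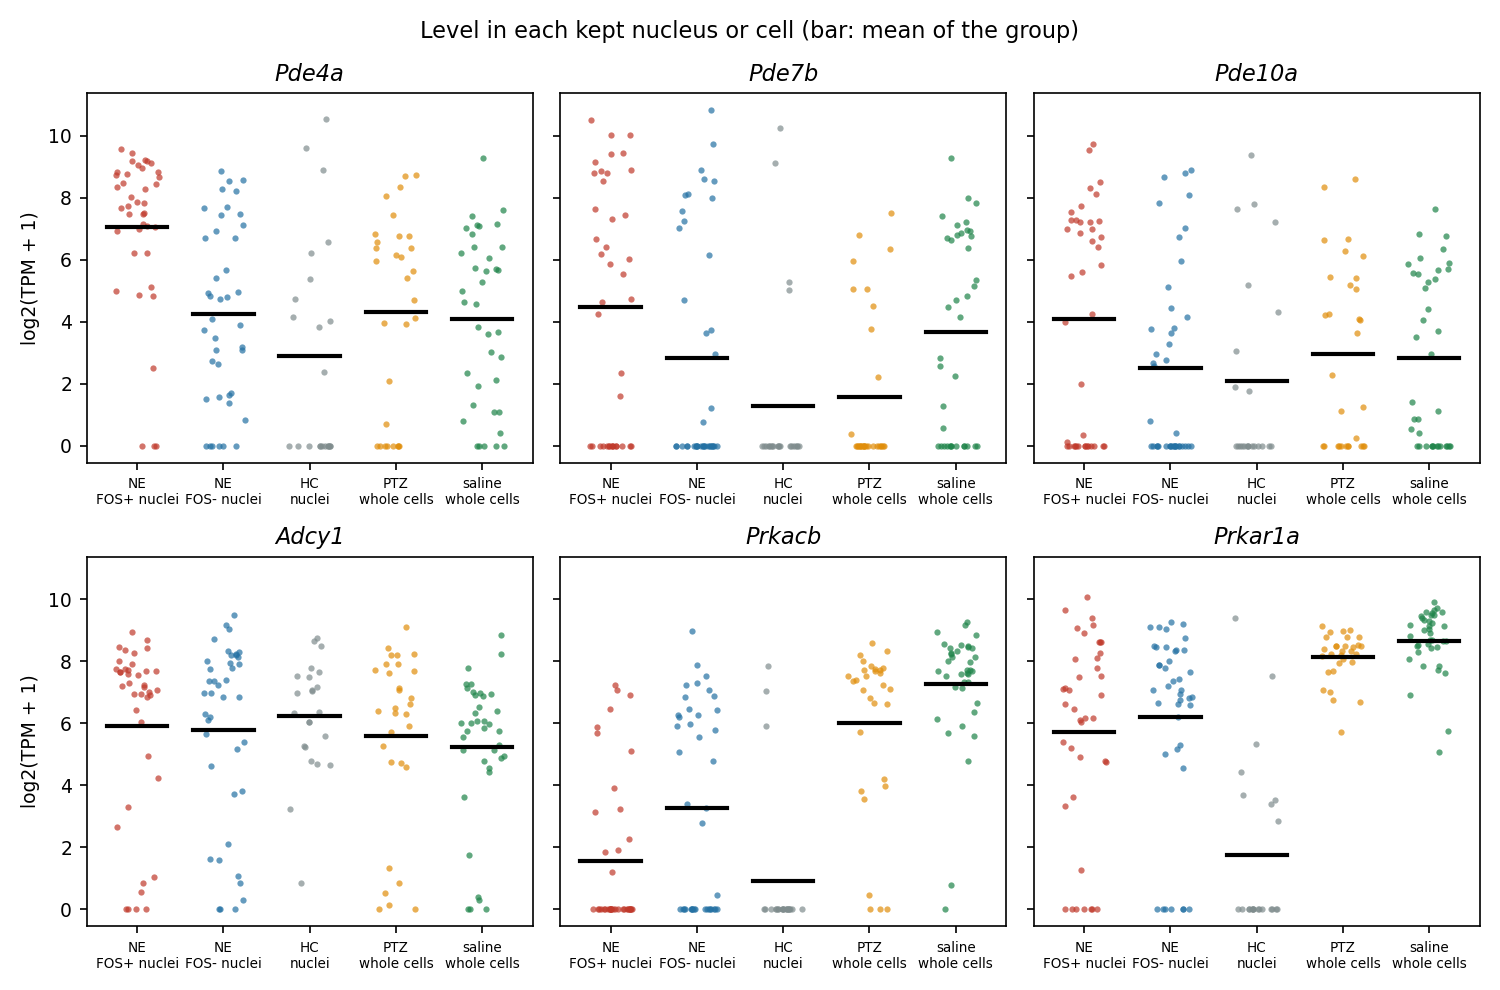
Level, as log2(TPM + 1) on the vertical axis, of 6 genes in every kept nucleus or cell (points) of the 5 groups, with the group mean as a black bar. Pde4a points of FOS+ nuclei gather at the top, with a mean of 7.07 against 4.25 in FOS- nuclei; Prkar1a is above 0 in every whole cell.

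Pde4a lies on chromosome 9, from 21165714 to 21213248 on the plus strand of GRCm38, and 3 start sites are listed for it in RefSeq on the build GRCm38.p6. The 100 bases before each of them are shown because this gene carried the largest difference of the set. Capitals mark the short cAMP response element TGACG on either strand, the core of the sequence bound by CREB.
Pde4a, chr9:21165614-21165713: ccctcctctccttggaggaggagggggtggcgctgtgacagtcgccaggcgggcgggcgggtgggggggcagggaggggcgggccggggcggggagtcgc
Pde4a, chr9:21184001-21184100: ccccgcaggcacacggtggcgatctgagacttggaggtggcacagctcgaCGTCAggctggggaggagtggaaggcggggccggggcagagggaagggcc
Pde4a, chr9:21196605-21196704: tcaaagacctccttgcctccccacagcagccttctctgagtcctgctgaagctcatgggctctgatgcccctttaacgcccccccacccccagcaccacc
The first window has a G+C content of 80%, the second 71% and the third 62%, against a median of 55% over all 32851 promoters listed. The short element stood in the second window only, and 10.5% of all windows of this length hold it.

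A further pair of phosphodiesterases leaned the same way without reaching the size rule. Pde7b, also specific for cyclic AMP, had a median TPM of 35.5 in FOS+ nuclei, where the highest was 1455, and of 0 in FOS- nuclei, where the highest was 1809. The highest values of the groups were thus alike, and the groups differed in how many nuclei showed the gene, at 25 of 40 (62.5%, 45.8% to 77.3%) against 17 of 41 (41.5%, 26.3% to 57.9%). Levels were 4.48 ± 3.98 (SD, n = 40 nuclei) and 2.83 ± 3.75 (SD, n = 41 nuclei), a difference of 1.65, and the summed CPM were 112.7 and 56.3.

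Pde10a encodes a phosphodiesterase of both cyclic AMP and cyclic GMP that is best known from striatal neurons. Its TPM had a median of 45.8 and a maximum of 854 in FOS+ nuclei and a median of 0.33 and a maximum of 472 in FOS- nuclei. It was detected in 24 of 40 (60%, 43.3% to 75.1%) and 19 of 41 nuclei (46.3%, 30.7% to 62.6%). Here the groups differed mostly in the upper range, since 16 FOS+ and 7 FOS- nuclei exceeded a TPM of 100. The difference in level was 1.61, from 4.10 ± 3.61 (SD, n = 40 nuclei) and 2.50 ± 3.08 (SD, n = 41 nuclei), and the summed CPM were 205.5 and 49.1, a ratio of 4.19.

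Both genes had a positive difference within each of the 4 amplification conditions, from 0.58 to 3.83 for Pde7b and from 0.88 to 2.49 for Pde10a. None of Pde4a, Pde7b and Pde10a was detected in 2 of the 40 FOS+ and 3 of the 41 FOS- nuclei, so that nearly every nucleus of either group showed at least 1. These 3 genes were set together because of their differences between these same nuclei. Their joint counts and shares therefore give no separate support for those differences. All 3 were detected in 14 of the FOS+ nuclei (35%, 20.6% to 51.7%). Among FOS- nuclei all 3 were detected in 5 of 41 (12.2%, 4.08% to 26.2%). Summed over nuclei, Pde4a made up 33.7% of the phosphodiesterase TPM in FOS+ nuclei, Pde7b 26.9% and Pde10a 14.1%, where the corresponding shares in FOS- nuclei were 14.7%, 23.1% and 9.79%. The phosphodiesterase with the highest TPM was Pde4a in 14 of 40 FOS+ nuclei (35%, 20.6% to 51.7%) and in 7 of 41 FOS- nuclei (17.1%, 7.15% to 32.1%).

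The windows before the listed starts of these genes are shown beside those of Pde4a; the short element was not among their letters.
Pde7b, chr10:20548329-20548428, minus strand: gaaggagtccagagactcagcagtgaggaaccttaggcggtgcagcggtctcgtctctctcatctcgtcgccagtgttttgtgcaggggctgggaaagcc
Pde10a, chr17:8801645-8801744, plus strand: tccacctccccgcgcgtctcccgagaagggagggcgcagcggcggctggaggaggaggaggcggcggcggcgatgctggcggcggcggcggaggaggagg
Pde10a, chr17:8849885-8849984, plus strand: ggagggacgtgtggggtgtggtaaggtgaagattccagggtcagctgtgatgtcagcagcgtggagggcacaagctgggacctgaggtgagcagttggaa
Pde7b lies on chromosome 10, from 20398004 to 20725078 on the minus strand, and Pde10a on chromosome 17, from 8525372 to 8986648 on the plus strand of GRCm38.

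Over the set, 32 of the 38 genes had a TPM above 1 in at least 5 NE nuclei and were considered. Pde4a was the 1 gene of the 32 that was higher by the size rule, where 1.2% of all 16387 genes considered were higher. None of the 32 was lower by the rule, where 0.629% of all genes were lower. The median difference of the 32 genes was -0.15 and that of all genes considered was -0.09. A positive difference in all 4 amplification conditions, of any size, was seen for 3 of the 32 genes, namely Pde4a, Pde7b and Pde10a, and for 6.7% of all genes. A negative one was seen for 4 of the 32, and for 9.89% of all genes, so that neither count stands far from its background. Genes outside the considered 32 were Adcy4, Adcy7, Pde1c, Pde3a, Pde6b and Pde6c. Of these, Adcy4 was at 0 in every nucleus and cell kept (0 of 40 FOS+ nuclei, which allows a share of up to 8.81%, and 0 of 41 FOS- nuclei, up to 8.60%).

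The 4 genes with a negative difference in every amplification condition were Pde1b, Prkar1b, Pde7a and Pde3b. Pde1b, a phosphodiesterase stimulated by calcium, was detected in 9 FOS+ and 16 FOS- nuclei and its difference was -1.05, although its summed CPM were 77.6 and 59.6, because 1 FOS+ nucleus held 61.6% of the counts of its group. Prkar1b, a type I regulatory subunit of PKA found mainly in neurons, showed in 3 FOS+ nuclei (7.5%, 1.57% to 20.4%) and in 10 FOS- nuclei (24.4%, 12.4% to 40.3%), and its difference was -1.04. Prkar1b was considered only through the FOS- group, so its negative sign carries little weight. Pde3b was detected in 13 FOS+ and 23 FOS- nuclei, mostly at low TPM, with medians of 3.59 and 4.84 among the nuclei that showed it. Pde7a, the relative of Pde7b, was detected in 14 and 21 nuclei and differed by -1.01.

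**Figure D2:**
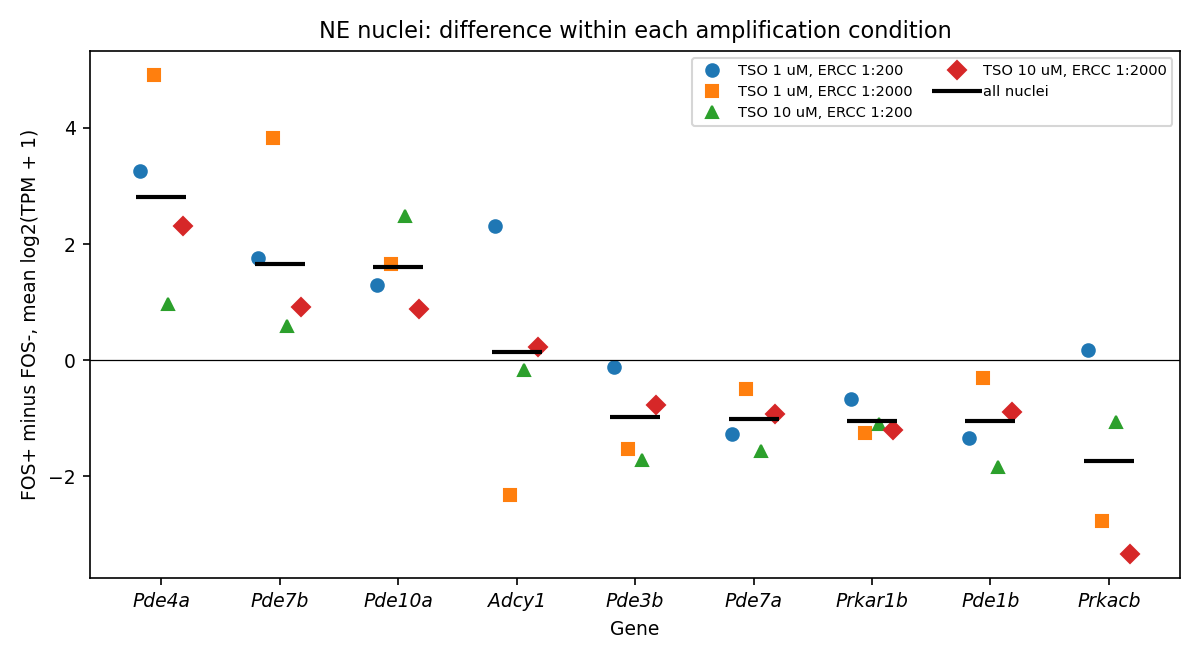
Difference in mean log2(TPM + 1) between FOS+ and FOS- nuclei (vertical axis) of 9 genes within each of the 4 amplification conditions (symbols) and over all nuclei (black bars). Pde4a, Pde7b and Pde10a lie above 0 in every condition, Pde3b, Pde7a, Prkar1b and Pde1b below 0, and Adcy1 and Prkacb on both sides.

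The catalytic subunits of PKA differed in how far FOS+ and FOS- nuclei lay apart. Prkacb was detected in 14 of 40 FOS+ nuclei (35%, 20.6% to 51.7%) and 22 of 41 FOS- nuclei (53.7%, 37.4% to 69.3%). Its TPM reached 151 in FOS+ nuclei, with a median of 0, and 504 in FOS- nuclei, with a median of 8.57. Levels of 1.55 ± 2.47 (SD, n = 40 nuclei) and 3.28 ± 3.25 (SD, n = 41 nuclei) gave the lowest difference of the set, at -1.73, and summed CPM of 33.6 and 155.3. The difference was negative in 3 conditions, from -3.33 to -1.07, and 0.18 in the one with 1 uM TSO and ERCC at 1:200. Prkaca, the other catalytic subunit, was detected in 16 FOS+ and 15 FOS- nuclei, at levels of 2.44 ± 3.23 (SD, n = 40 nuclei) and 2.14 ± 3.08 (SD, n = 41 nuclei). Its difference of 0.30 was negative in 2 conditions (-0.42 and -0.99) and positive in the other 2 (0.70 and 1.81). Neither catalytic subunit was detected in 17 FOS+ nuclei (42.5%, 27.04% to 59.1%) and 10 FOS- nuclei (24.4%, 12.4% to 40.3%).

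Among the regulatory subunits, Prkar1a, the widely expressed type I subunit, was one of the most frequent transcripts of the set. It was detected in 33 of 40 FOS+ and 34 of 41 FOS- nuclei, with median TPMs of 93.1 and 133.3 and highest values of 1086 and 620. Levels were 5.71 ± 3.23 (SD, n = 40 nuclei) and 6.19 ± 3.06 (SD, n = 41 nuclei), and the difference of -0.48 was positive in 2 conditions and negative in the other 2. Prkar2a, a type II subunit, was detected in 16 and 15 nuclei with a difference of 0.29. Prkar2b, the type II subunit best known from brain, was detected in 3 and 6 nuclei and was considered only through the FOS- group.

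Adcy1, the calcium-stimulated cyclase of neurons, led the cyclases in every group. Its median TPM was 144.3 in FOS+ nuclei, where it was detected in 34 of 40, and 124.4 in FOS- nuclei, where it was detected in 36 of 41. The groups overlapped throughout, at levels of 5.92 ± 2.91 (SD, n = 40 nuclei) and 5.77 ± 2.97 (SD, n = 41 nuclei). The small difference of 0.15 hid opposite values by condition, of 2.31 and -2.32 with 1 uM TSO at the 2 ERCC dilutions. Each condition held 8 to 11 nuclei a group, and the cause of this spread was not tested. Adcy1 was the cyclase of highest TPM in 27 of 40 FOS+ nuclei (67.5%, 50.9% to 81.4%) and 22 of 41 FOS- nuclei (53.7%, 37.4% to 69.3%).

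Adcy2, a cyclase stimulated by protein kinase C and by G protein beta-gamma subunits, was detected in 15 FOS+ and 18 FOS- nuclei, at levels of 1.78 ± 2.49 (SD, n = 40 nuclei) and 1.88 ± 2.49 (SD, n = 41 nuclei). Adcy9, a cyclase of broad expression, was detected in 20 nuclei of each group and differed by 0.21. The other cyclases considered had differences from -0.54 for Adcy10, the soluble cyclase, to 0.45 for Adcy3. Exons of Adcy3 share 22.1% of their bases with Cenpo on the other strand, and reads of the 2 genes may not have been told apart.

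**Figure D3:**
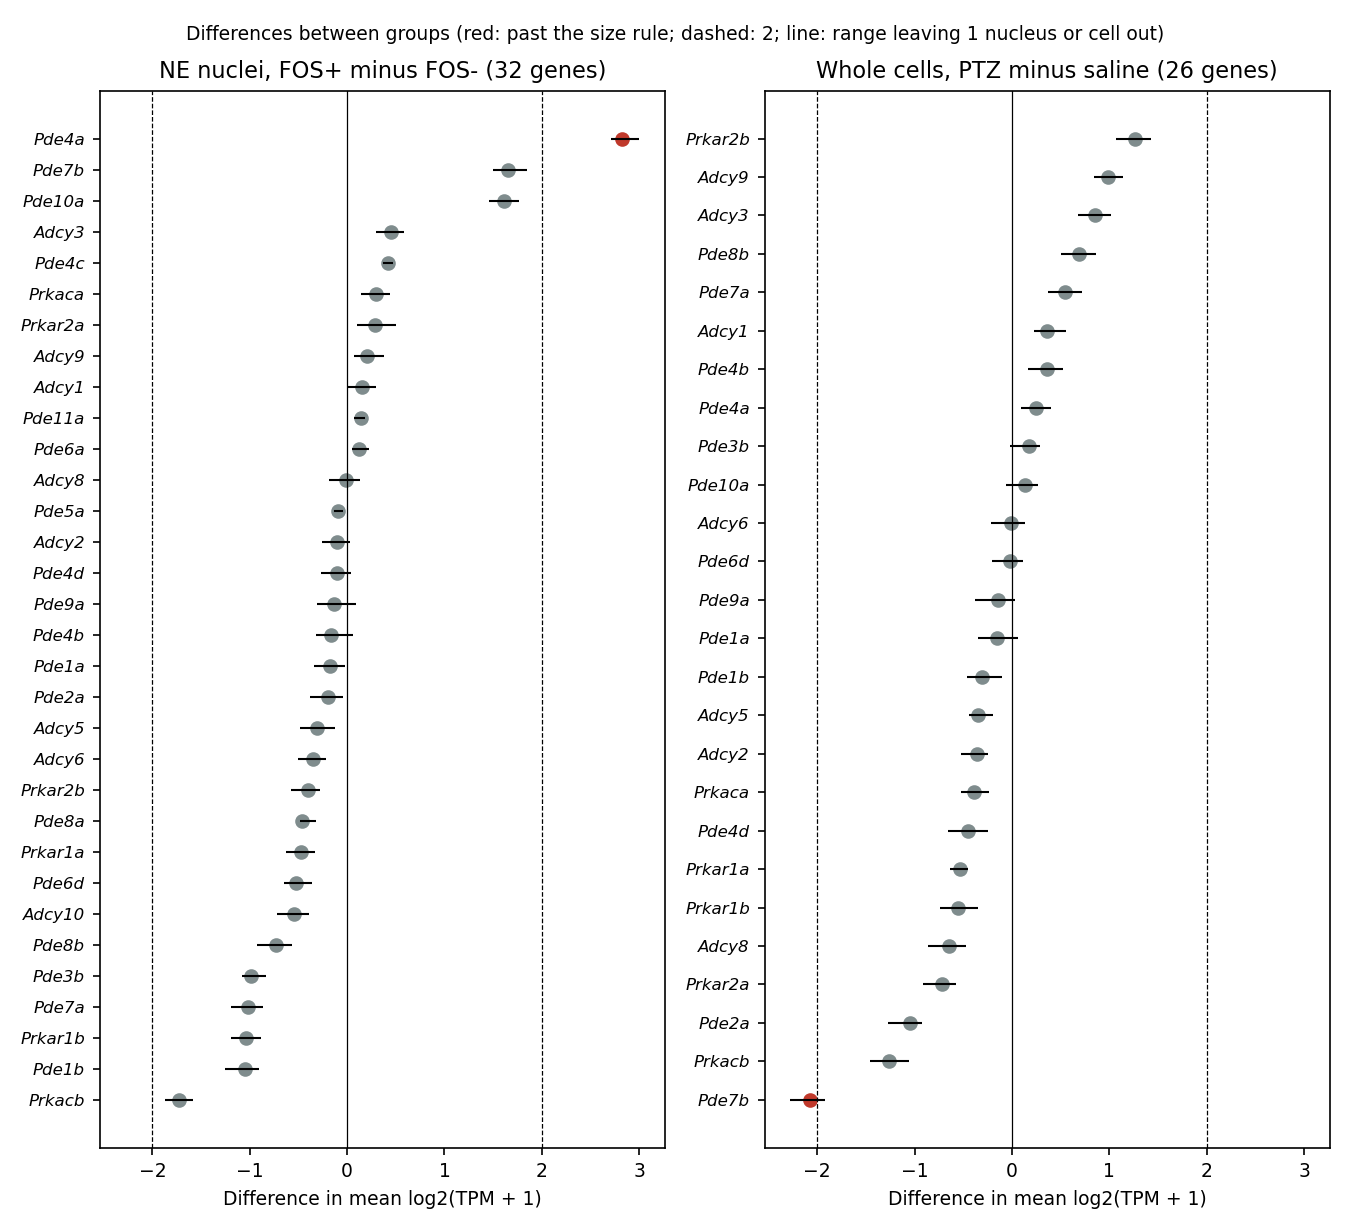
Difference in mean log2(TPM + 1), on the horizontal axis, for the 32 genes considered in NE nuclei (left) and the 26 considered in whole cells (right). Red points are past the size rule, dashed lines mark a difference of 2 in either direction and black lines give the range on leaving out 1 nucleus or cell; Pde4a at 2.82 and Pde7b at -2.07 are the red points.

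In the whole cells Pde7b was the 1 gene past the size rule, and it was lower after PTZ. Its TPM ran from 0 to 182 in PTZ-treated cells, with a median of 0, and from 0 to 617 in saline-treated cells, with a median of 19.1. It was detected in 9 of 30 PTZ-treated cells (30%, 14.7% to 49.4%) and in 24 of 38 saline-treated cells (63.2%, 45.99% to 78.2%). High values were rarer after PTZ, where 2 cells exceeded a TPM of 100 against 12 after saline. The levels were 1.59 ± 2.59 (SD, n = 30 cells) and 3.66 ± 3.23 (SD, n = 38 cells), a difference of -2.07, and the summed CPM were 27.97 (26.4 to 29.6) and 69.8 (67.3 to 72.4), a ratio of 0.401.

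This difference stood at the edge of the rule. It was between -2.28 and -1.92 on leaving out 1 cell in turn, with 14 of the 38 saline-treated cells bringing it within 2 when left out, and it was -1.60 with all 35 and 47 cells of the table. Thinned to 50000 counts, the expected share of cells with a Pde7b read was 22.6% after PTZ and 50.6% after saline. In the NE nuclei the same gene was higher in the FOS+ group by 1.65. The 2 values come from separate tables, and their difference was not tested.

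Of the 38 genes, 26 were considered in the whole cells. None of these was higher in PTZ-treated cells by the size rule, where 0.167% of all 13748 genes considered were higher, and 1 was lower, where 0.582% of all genes were lower. The median difference was -0.15 over the 26 genes and -0.06 over all genes. A count of 1 among 26 does not stand out against these shares.

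Prkar2b and Prkacb came next in size. Prkar2b was detected in 13 of 30 PTZ-treated cells (43.3%, 25.5% to 62.6%) and 5 of 38 saline-treated cells (13.2%, 4.41% to 28.1%), with levels of 2.01 ± 2.57 (SD, n = 30 cells) and 0.74 ± 1.93 (SD, n = 38 cells). It was the gene of the set with the largest positive difference, at 1.27. Prkacb was detected in 26 and 36 cells, with median TPMs of 156.2 and 206.5 and levels of 6.01 ± 2.71 (SD, n = 30 cells) and 7.27 ± 1.94 (SD, n = 38 cells), a difference of -1.26. Prkaca differed by -0.39 and Prkar1b by -0.56, and their ranges overlapped throughout.

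Prkar1a was the highest gene of the set in both treatments and was detected in every one of the 68 cells. Its TPM ran from 51.5 to 559 after PTZ and from 32.9 to 960 after saline, with medians of 322.3 and 461.9. The spread over cells was narrow, at levels of 8.13 ± 0.79 (SD, n = 30 cells) and 8.66 ± 1.03 (SD, n = 38 cells), a difference of -0.54. The cAMP response element TGACGTCA was found in promoters of Prkar1a and of no other gene among the 30 of the set with a listed promoter, where 2.03% of all genes with one hold it in the 300 bases searched. Several starts are listed for Prkar1a. Among the windows of 100 bases before them, only the one below holds the full element, shown in capitals.
Prkar1a, chr11:109650849-109650948, plus strand: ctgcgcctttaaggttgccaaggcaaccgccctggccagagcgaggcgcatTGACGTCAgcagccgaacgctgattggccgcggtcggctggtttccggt
The element is its own reverse complement, contains the short element on both strands, and starts 49 bases before the listed start that follows this window.

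The cyclases of whole cells were led by Adcy1, in 25 of 30 PTZ-treated and 33 of 38 saline-treated cells, with median TPMs of 86.1 and 59.2 and a difference in level of 0.36. Adcy2 was detected in 19 and 26 cells, with levels of 3.50 ± 2.96 (SD, n = 30 cells) and 3.87 ± 2.91 (SD, n = 38 cells). Adcy9 differed by 0.99, the largest difference among the cyclases, with detection in 16 cells of each treatment. Pde10a, detected in 18 and 21 cells, differed by 0.14.

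Pde1b was the leading phosphodiesterase of whole cells. It was detected in 24 of 30 PTZ-treated and 34 of 38 saline-treated cells, with median TPMs of 123.8 and 121.7, and was the phosphodiesterase of highest TPM in 12 cells of each treatment. Pde2a, which cyclic GMP stimulates to degrade cyclic AMP, was detected in 11 and 22 cells and differed by -1.04. Its reads are uncertain, since 64.3% of its exon bases also belong to Gm45837, a read-through model on the same strand that the deposited tables do not list. The remaining phosphodiesterases considered differed by between -0.45 for Pde4d and 0.69 for Pde8b.

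**Figure D4:**
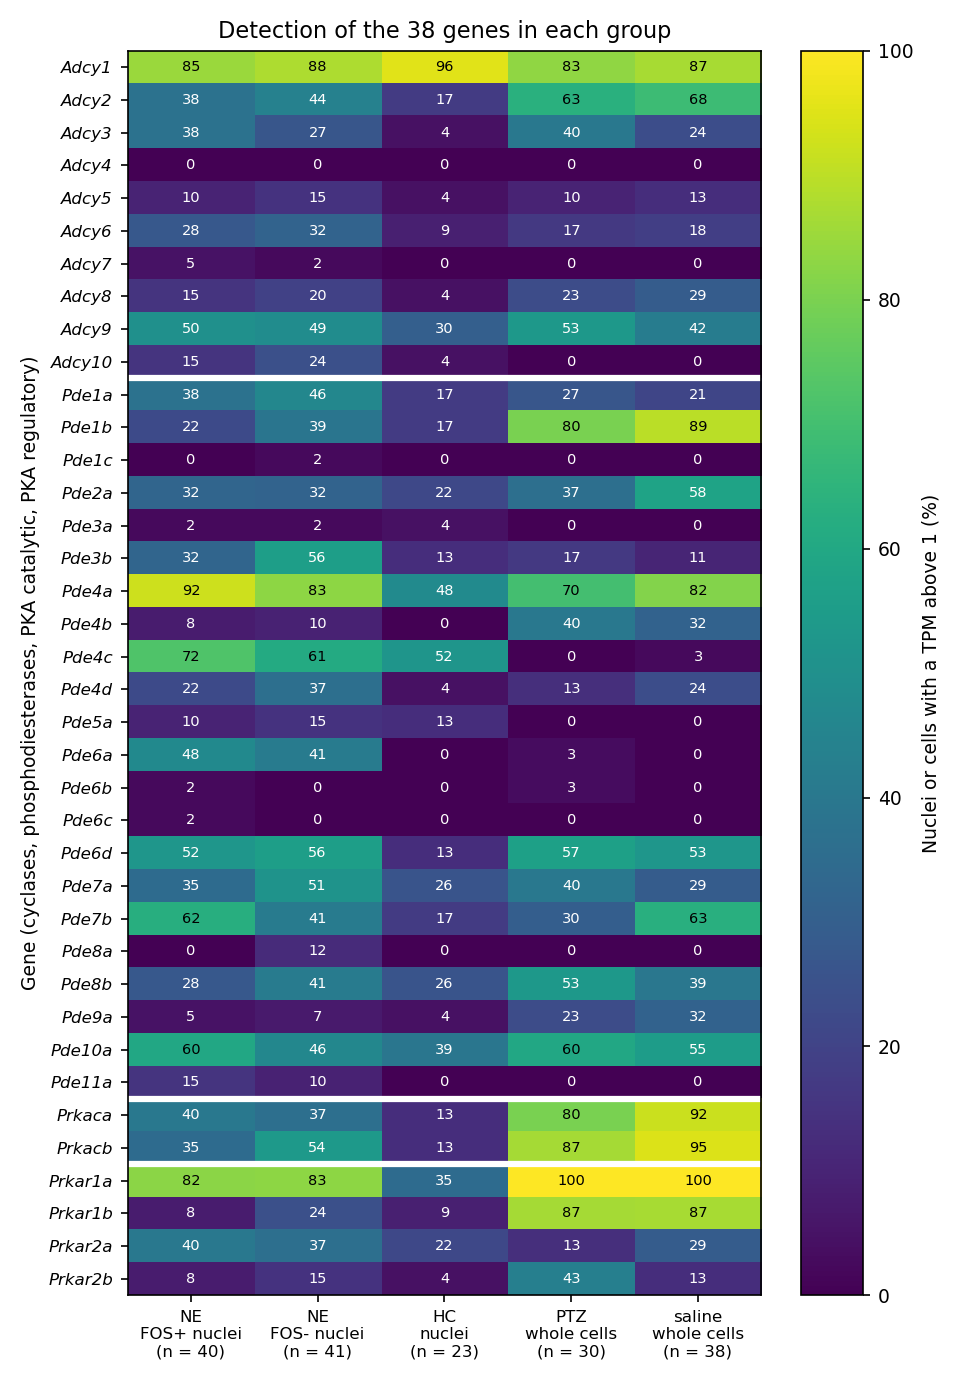
Percent of kept nuclei or cells with a TPM above 1 (numbers and colour) for the 38 genes (rows, by role) in the 5 groups (columns). Adcy1 is frequent in every group, from 83.3% to 95.7%, while Prkar1b, Prkacb and Pde1b are more frequent in whole cells than in nuclei, and Pde4c less.

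Nuclei and whole cells were prepared and sequenced differently, and their values are only set side by side. Prkar1b, both catalytic subunits of PKA and Pde1b were detected in larger shares of the whole cells. Prkar1b was detected in 59 of 68 cells (86.8%, 76.4% to 93.8%), in 13 of 81 NE nuclei (16.05%, 8.83% to 25.9%) and in 2 of 23 HC nuclei. For Prkacb the counts were 62 cells, 36 NE nuclei and 3 HC nuclei, for Prkaca 59, 31 and 3, and for Pde1b 58, 25 and 4. Prkar2a had the reverse order between cells and NE nuclei, in 15 cells (22.1%), 31 NE nuclei (38.3%) and 5 HC nuclei. The subunit of highest TPM among the catalytic pair was Prkacb in 34 of 38 saline-treated cells (89.5%, 75.2% to 97.1%), in 22 of 29 PTZ-treated cells that showed either, and in 10 of 23 FOS+, 20 of 31 FOS- and 3 of 6 HC nuclei that showed either.

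Some phosphodiesterase genes were seen in nuclei and hardly in cells. Pde5a was detected in 13, Pde11a in 10 and Pde8a in 5 of all 104 nuclei, and each in 0 of 68 cells. Pde4c and Pde6a were seen in more nuclei than these. Pde4c was detected in 54 of 81 NE nuclei (66.7%, 55.3% to 76.8%), 12 of 23 HC nuclei and 1 of 68 cells. It stayed low wherever it was seen, with a highest TPM of 17.1 in FOS+ nuclei and 135 counts over all 40 of them. Pde6a, the catalytic subunit of the rod photoreceptor enzyme, was detected in 36 of 81 NE nuclei, in no HC nucleus (0 of 23, which allows a share of up to 14.8%) and in 1 cell. With 87 counts over the 40 FOS+ and 54 over the 41 FOS- nuclei, these values rest on few reads.

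The home-cage nuclei showed the same leading cyclase. Adcy1 was detected in 22 of 23 (95.7%, 78.1% to 99.9%), with a lowest TPM of 0.78, a median of 81.3 and a highest of 432, and was the cyclase of highest TPM in 18 of them. Pde4a ranked second by level, at 2.88 ± 3.55 (SD, n = 23 nuclei), followed by Pde10a, in 9 nuclei, at 2.10 ± 3.16 (SD, n = 23 nuclei). These next levels lie well within the spread of each other. Pde7b was detected in 4 HC nuclei, Prkacb and Prkaca in 3 each, Prkar1a in 8, and Prkar1b in 2.

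Per nucleus, 11.4 ± 3.83 (SD, n = 40 nuclei) of the 38 genes were detected in the FOS+ and 12.4 ± 4.35 (SD, n = 41 nuclei) in the FOS- group, 5.83 ± 1.95 (SD, n = 23 nuclei) in the HC group, 12.5 ± 5.25 (SD, n = 30 cells) after PTZ and 12.9 ± 2.78 (SD, n = 38 cells) after saline. The lower number in HC nuclei came with fewer genes detected in all, at 3237 ± 371 (SD, n = 23 nuclei) against 6185 ± 1398 (SD, n = 40 nuclei) in FOS+ nuclei, on another platform. Every nucleus showed at least 1 cyclase and 1 phosphodiesterase, whereas 3 PTZ-treated and 3 saline-treated cells showed no cyclase. Phosphodiesterase transcripts, Pde4a included, summed to a median TPM of 687.8 in FOS+ nuclei and 446.0 in FOS- nuclei. The family did not differ as a whole in that direction. Of its 18 genes considered in NE nuclei, 6 had a positive and 12 a negative difference, with a median of -0.15. Over all genes considered, 42.6% had a positive one. Cyclase transcripts summed to medians of 234.1 and 248.8. Regulatory subunits summed to medians of 150.005 and 259.2.

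**Figure D5:**
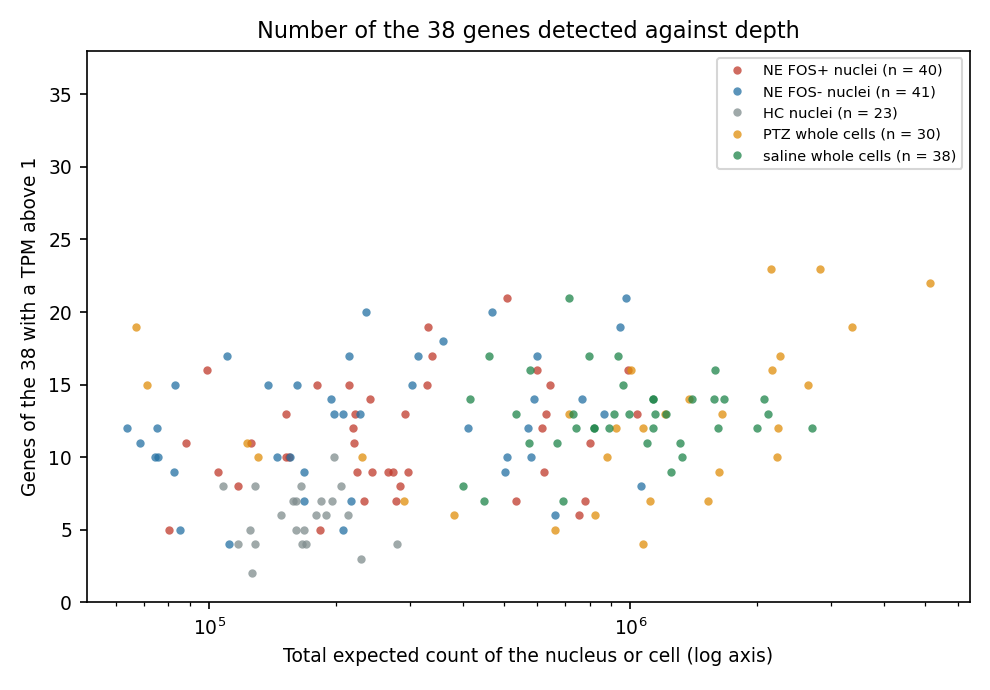
Number of the 38 genes with a TPM above 1 (vertical axis) against the total expected count of each nucleus or cell (log axis), coloured by group. HC nuclei lie lowest, at 2 to 10 genes, and the other groups overlap, at 4 to 23.

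Genes that act next to the set were listed by role, 83 in all. In the NE nuclei 58 were considered, of which none was higher by the size rule and 3 were lower, again beside 0.629% of all genes. These were Pkia, a peptide inhibitor of PKA, detected in 20% of FOS+ and 46.3% of FOS- nuclei with a difference of -2.26, Rapgef4, which encodes the cyclic AMP-activated exchange factor EPAC2, with 55% and 70.7% and -2.20, and Adcyap1r1, the receptor for the peptide PACAP, which couples to cyclases, with 40% and 68.3% and -2.04. They belong to 3 lists, of PKA inhibitors, EPAC exchange factors, and receptors coupled to Gs with PACAP. In whole cells 59 of the 83 were considered and none passed the rule in either direction, with differences from -1.70 for Akap5 to 1.86 for Crtc3.

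Pkib, another PKA inhibitor peptide and the most frequent gene of its list, was detected in every NE nucleus, at a level of 6.79 in FOS+ and 6.999 in FOS- nuclei. All 7 G protein alpha subunits were considered, and their differences ran from -1.06 to 0.44. Gnai2 and Gnao1, inhibitory subunits and the most frequent of them, differed by -0.84 each. The A-kinase anchoring proteins tether PKA, and 11 of the 14 listed were considered. They had 9 negative and 2 positive differences, where 42.6% of all 16387 genes considered had a positive one. The most frequent were Akap5, at -0.31, and Akap11, at -0.27. The 6 genes of the CREB family and its coactivators split into 3 positive and 3 negative differences, and Crtc3, a CREB coactivator, differed by -0.94 in nuclei against the 1.86 in whole cells.

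Among receptors that couple to Gi, 11 of 18 were considered. They had 2 positive and 9 negative differences, again beside 42.6% of all genes with a positive one. Gabbr1, a subunit of the GABA-B receptor, was the most frequent, in 95% of FOS+ and 70.7% of FOS- nuclei, and differed by 1.57, while its partner Gabbr2 differed by -0.52. The 3 subunits of soluble guanylyl cyclase considered differed by 0.04 to 0.11, and the 2 HCN channels considered, which cyclic AMP gates, by -0.15 and 0.19. Gpr3, a receptor that activates cyclases without a known ligand, was singled out after its values were seen. It had the largest positive difference of the 58 genes, at 1.97, with detection in 32.5% of FOS+ nuclei. None of the 41 FOS- nuclei showed Gpr3, which allows a share of up to 8.60%, so Gpr3 was considered only through the FOS+ group. The reverse held for Htr1a of the Gi list, detected in no FOS+ nucleus and in 29.3% of FOS- nuclei. Its difference was -1.48, and it was considered only through the FOS- group.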

How the data were processed

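Single whole cells and nuclei were amplified and sequenced by the study (Smart-seq2 for whole cells and NE nuclei, Fluidigm C1 for HC nuclei). The authors deposited, per gene, expected counts and TPM made with RSEM over Bowtie 1.0.0 on mm10, per the labels and the submitters' processing notes. All 201 samples were matched to columns by title. Expected counts were rounded where counts were summed. Nuclei and cells were kept at a total count over 50000 and with more genes above 1 TPM than the mean minus 2 SD of their table; all HC nuclei were kept, and no spike-in criterion or doublet caller was applied. Genes above 1 TPM in at least 5 kept nuclei or cells of a table were considered. The study tested nuclei as replicates with edgeR, after leaving out FOS+ nuclei whose expression grouped with FOS- nuclei. Such nuclei were not left out here, and the numbers of nuclei kept differ from the study's. Here a group is 1 sample, so differences in mean log2(TPM + 1) were given with no test, the size rule being a difference of 2. Genes described in full were those past the size rule and the 2 of each role most often detected; others were named after their values were seen. The genes and lists were chosen with earlier results of these data known. The code of the size rule was checked on simulated counts with counting error only and large changes placed in high genes. That check does not show how the rule behaves with the spread over nuclei seen here. TMM factors came from edgeR 4.0.16, intervals from scipy 1.17.1. Gene positions and overlaps came from GENCODE vM21 (GRCm38) and promoters from RefSeq (GRCm38.p6), which listed 30 of the 38 genes. Alternatives changed the pseudocount, scale, filters, threshold and detection limit. Values of 1 related list are not reported here.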

Additional observations from a re-analysis of the deposited data

How the results depend on the processing

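No paired analysis was possible because numbers shared by nuclei or cells of different groups only name wells. In the NE nuclei Pde4a stayed higher by the size rule at pseudocount 10, on both CPM scales, in all nuclei, in summed counts, without each nucleus in turn and without nuclei rich in glial markers (an alternative chosen after seeing the data); its difference in level ran from 2.06 to 3.17. The count of higher genes became 3 with pseudocount 0.1 or a threshold of 1 (Pde7b and Pde10a joined), and 0 with a threshold of 3 and for a difference of 25 percentage points in the share above 1 TPM, above 5 TPM or after thinning to 50000 counts. The count of lower genes became 3 with a threshold of 1 and 4 in summed counts. In whole cells the count of lower genes became 0 with pseudocount 10, in all cells or with a threshold of 3, 3 with a threshold of 1 and 2 in summed counts (Prkar2a and Pde4d, without Pde7b), and ran from 0 to 1 on leaving out 1 cell. The count of higher genes became 1, Prkar2b, with pseudocount 0.1, with a threshold of 1 and for shares above 1 or 5 TPM. Over all genes, the 196 higher and 103 lower in NE nuclei ran from 59 to 569 and from 9 to 922 over these alternatives, and the 23 higher and 80 lower in whole cells from 3 to 637 and from 4 to 1165. The causes of these changes were not tested. The Pde7b difference after PTZ stayed negative, from -3.14 to -1.10. Depth limits genes of few reads: 3 counts are 2.83 to 47.04 CPM in single NE nuclei and 0.585 to 44.6 CPM in single whole cells.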
